A study of Mus musculus with 9 samples.

Results

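The flavin monooxygenase genes Fmo1, Fmo2, Fmo4 and Fmo5 were followed in mouse liver, in wild type mice, in mice with a YAP transgene and in mice with the transgene and loss of Lsd1. The 4 genes were taken from a list of names and had been selected on their junction reads in these same libraries. Their levels in the 3 groups are therefore given as a description, with no test. A gene's value was the sum of uniquely mapped reads that crossed its annotated splice junctions. The 4 genes were among 16012 genes with such reads, of which 10897 had enough reads to be fitted, and all 4 passed that filter on low counts. They held 33 of the 150261 junctions that belonged to 1 gene.

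Flavin monooxygenases sit in the membrane of the endoplasmic reticulum, carry FAD and take electrons from NADPH. FAD reacts with oxygen to a hydroperoxide that waits in the enzyme, and a soft nucleophile, usually a nitrogen or sulfur atom of an amine, thiol or sulfide, takes up 1 oxygen atom from it. In liver they act beside cytochromes P450 on drugs, dietary amines and sulfur compounds. In adult mice Fmo1 and Fmo5 are the main liver forms, Fmo2 is best known from lung, and Fmo4 is a minor form.

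The study examined how YAP, the transcriptional coactivator held back by Hippo signalling, and LSD1, a histone demethylase encoded by Kdm1a, change transcription in liver. There were 9 libraries of strain C57BL/6, 3 in each of the groups WT (wild type), YAP (YAP transgenic) and YAP_Lsd1ko (YAP transgenic with Lsd1 knockout). Every mouse, wild type included, received AAV8-ApoE/ATT1-Cre, an adeno-associated viral vector for Cre whose name gives an ApoE/ATT1 element, by the intraperitoneal route. Every mouse, again with wild type included, also had 30 mg/L doxycycline in the drinking water for 14 days, which switched on the transgene where present. No group had the Lsd1 knockout without YAP, so the effect of losing Lsd1 alone could not be read. The labels give neither age nor sex, and nothing says that the 3 libraries of a group came from separate animals, so the tests measure the spread between these libraries, which may be technical. Male-specific transcripts such as Ddx3y were read in all 9 libraries, and Xist had at most 1 read in any of them.

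The libraries held 6910297 to 9925154 uniquely mapped junction reads, of which 6516711 to 9267028 fell on junctions of a single gene. Levels are given as CPM, counts scaled to the total of these reads with TMM factors. Kdm1a levels were 30.1, 38.3 and 31.3 CPM for the WT libraries, 36.7, 42.7 and 46.2 for those of YAP, and 15.8, 35.4 and 25.3 for those of YAP_Lsd1ko. The library labelled YAP_Lsd1ko replicate 2 thus had as much Kdm1a RNA as WT, and the levels, the log2 differences and the calls of listed genes that involve YAP_Lsd1ko are also given without it. Yap1 RNA was at 17.4 to 19.8 CPM in WT, 66.8 to 78.8 in YAP and 30.4 to 47.7 in YAP_Lsd1ko, 3.96-fold higher in YAP than in WT and 1.98-fold lower in YAP_Lsd1ko than in YAP (edgeR quasi-likelihood test, adjusted p = 0.0213, and 1.93-fold without the library labelled YAP_Lsd1ko replicate 2). The loss of Lsd1 and the lower Yap1 RNA cannot be told apart in any comparison of YAP_Lsd1ko with YAP. Replicate 3 held the middle value of its group in 62.5% of the 10897 genes in WT, 48.6% in YAP and 60.9% in YAP_Lsd1ko. For the 4 flavin monooxygenase genes it was the middle library in 10 of 12 cases, the exceptions being Fmo1 and Fmo4 in YAP. Whether replicate 3 was independent of the others was not tested. Hepatocyte markers were read at 120413 to 228663 CPM in sum, most of it Alb, at 83664 to 186692 CPM. Of 8 hepatocyte markers, 1 rose (Trf) and 1 fell (Ttr) between YAP and WT (edgeR adjusted p under 0.05), against 7.44% and 10% of all genes. Between YAP_Lsd1ko and WT, 0 of the 8 rose and 1 fell, against 1.12% and 0.927% of all genes. Ttr was at 4832 to 6178 CPM in WT, 998 to 1226 in YAP and 1813 to 2114 in YAP_Lsd1ko.

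Fmo4, Fmo1 and Fmo2 lie side by side on the minus strand of chromosome 1, at 162793188 to 162813972, 162829561 to 162866610 and 162874317 to 162898726 (GRCm38), and Fmo5 lies on the plus strand of chromosome 3, at 97628804 to 97655282. The coding starts of Fmo2, Fmo4 and Fmo5 are shown because they carry a feature that flavin monooxygenases share, the glycine-rich turn that holds FAD. Below are the first 90 coding bases from the GENCODE M21 transcripts, and the capitals mark an in-frame match to the motif GGNNNNGGNNNNNNNGGN, where N is any base and each GGN in frame is a glycine codon.
Fmo2: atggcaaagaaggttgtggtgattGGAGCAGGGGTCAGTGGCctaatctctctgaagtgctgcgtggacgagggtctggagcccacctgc
Fmo4: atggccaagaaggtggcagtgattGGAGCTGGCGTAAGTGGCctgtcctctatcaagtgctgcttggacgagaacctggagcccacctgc
Fmo5: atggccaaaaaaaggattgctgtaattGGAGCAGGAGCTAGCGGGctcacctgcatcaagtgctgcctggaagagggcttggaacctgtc
The match began at coding base 25 in Fmo2 and Fmo4 and at base 28 in Fmo5. It was also present in frame within the first 90 coding bases of 3.41% of the 21582 mouse genes whose coding sequence is that long, so the match is not particular to these genes.

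The 4 genes share their exon plan. Each coding sequence was cut into 8 coding exons, and exons 2, 3 and 4 were 189, 163 and 143 bases long in all 4 genes. Over the whole coding sequence, pairs of genes were identical at 61.3 to 65.1% of aligned bases, Fmo1 with Fmo5 the least and Fmo2 with Fmo4 the most. The junction between coding exons 3 and 4 is shown with 30 bases on each side, because it is the place where reads of the 4 genes are counted at the same point of the protein. Lower case is the end of exon 3 and capitals are the start of exon 4.
Fmo1: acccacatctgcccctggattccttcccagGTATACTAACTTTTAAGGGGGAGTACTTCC
Fmo2: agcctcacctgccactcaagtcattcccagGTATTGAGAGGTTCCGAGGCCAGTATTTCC
Fmo4: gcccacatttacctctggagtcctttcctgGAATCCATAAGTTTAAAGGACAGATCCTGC
Fmo5: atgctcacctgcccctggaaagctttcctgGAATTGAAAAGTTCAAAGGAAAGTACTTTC
Any pair of these differed at 20 to 26 of 60 bases. The longest run shared by any pair of the full coding sequences was 24 bases. The longest overhang of any read at the junctions shown was 37 bases in Fmo4 and 38 in the other genes. This is a maximum and does not give the overhang of a typical read. Multi-mapped reads came to 2.97% of all reads at Fmo2 junctions, 7.02% at Fmo1, 7.12% at Fmo4 and 9.74% at Fmo5, and they were left out of the levels.

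Across the junction shown, Fmo1 had 718 reads in WT, 1030 in YAP and 1206 in YAP_Lsd1ko. Fmo2 had 39, 293 and 92 reads there in the same order. Fmo4 had 51, 27 and 47, and Fmo5 had 1054, 513 and 726. The order of the groups at this junction was that of the mean level of each gene, described next.

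Fmo2 was the gene with the widest difference between the groups. It stood at 17.4, 12.6 and 14.9 CPM in the WT libraries, at 107, 48.1 and 73.9 CPM in YAP, and at 21.0, 30.3 and 27.0 CPM in YAP_Lsd1ko. Each YAP library was above each YAP_Lsd1ko library, and each of these was above each WT library, so the 3 groups did not overlap. YAP replicate 1 had the highest value of the 9. The group means were 14.9 ± 2.41 CPM in WT, 76.5 ± 29.7 in YAP and 26.1 ± 4.71 in YAP_Lsd1ko (SD, n = 3). In the fit Fmo2 stood 5.12-fold above WT in YAP (log2 2.35, SE 0.29), 2.93-fold lower in YAP_Lsd1ko than in YAP (log2 -1.55, SE 0.28), and 1.74-fold higher in YAP_Lsd1ko than in WT (log2 0.80, SE 0.29). Without the library labelled YAP_Lsd1ko replicate 2 the last 2 log2 differences were -1.68 and 0.68. With every replicate 3 left out, the log2 difference between YAP and WT was 2.37, with an SE of 0.46.

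**Figure D1:**
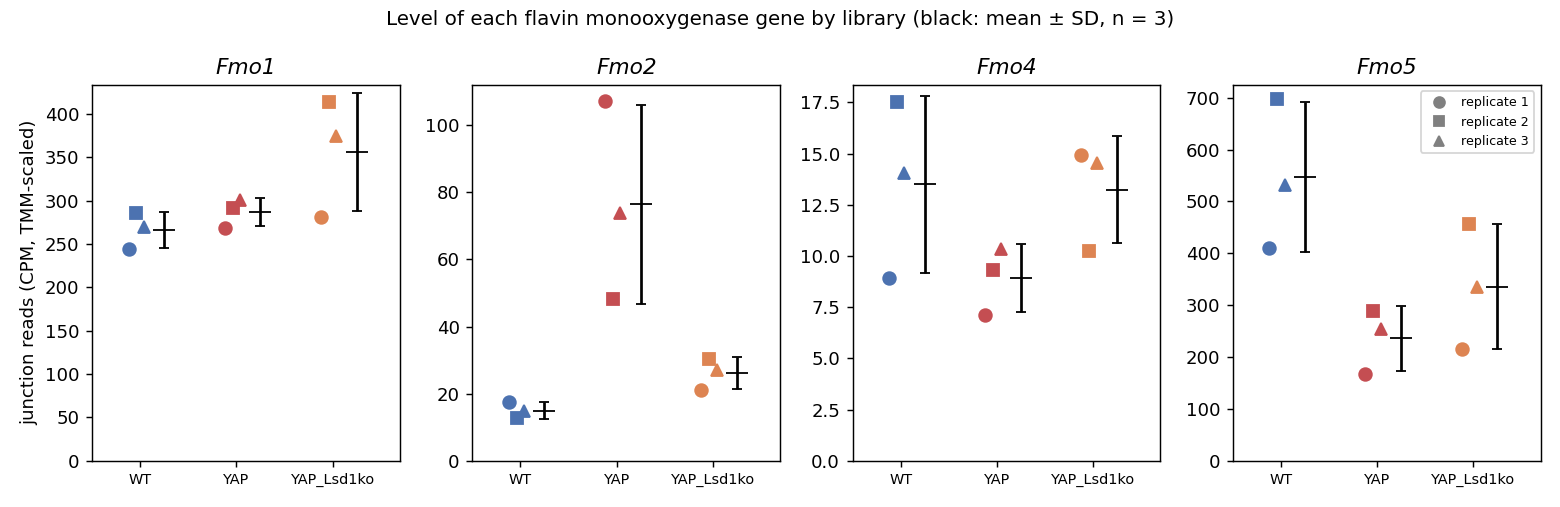
Level of Fmo1, Fmo2, Fmo4 and Fmo5 in each of 9 libraries, in CPM (y axis, linear from 0, a separate scale per gene) by group (x axis); coloured marks are single libraries, with a shape for each replicate number, and the black marks beside them are the mean ± SD of 3 libraries. Fmo2 is at 48.1 to 107 CPM in YAP and at 12.6 to 30.3 CPM in the other libraries, and Fmo5 is lower in all 3 YAP libraries than in all 3 WT libraries.

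Fmo5, a main liver form that adds oxygen next to the carbonyl group of ketones and aldehydes more readily than to amines, was the most abundant member in WT and was lower with YAP. It stood at 410, 698 and 532 CPM in WT, at 167, 288 and 254 CPM in YAP, and at 215, 456 and 335 CPM in YAP_Lsd1ko. All YAP libraries were below all WT libraries, whereas the YAP_Lsd1ko libraries reached into the range of both other groups. The means were 546 ± 145, 236 ± 62.6 and 335 ± 121 CPM (SD, n = 3). The fit put Fmo5 2.31-fold lower in YAP than in WT (log2 -1.21, SE 0.32), 1.42-fold higher in YAP_Lsd1ko than in YAP (log2 0.50, SE 0.32) and 1.63-fold lower in YAP_Lsd1ko than in WT (log2 -0.70, SE 0.32). The difference between YAP_Lsd1ko and YAP leaned on 1 library: without the library labelled YAP_Lsd1ko replicate 2 it was 0.21 on the log2 scale, and that between YAP_Lsd1ko and WT was -0.99.

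Fmo1, the other main liver form and a maker of taurine from hypotaurine, differed little between WT and YAP. The WT libraries stood at 244, 285 and 270 CPM and the YAP libraries at 269, 292 and 300 CPM, which overlapped. The YAP_Lsd1ko libraries stood at 281, 414 and 375 CPM, 2 of them above every library of the other groups and replicate 1 within their range. The means were 267 ± 20.9, 287 ± 16.2 and 357 ± 68.0 CPM (SD, n = 3). The log2 differences were 0.11 between YAP and WT, 0.31 between YAP_Lsd1ko and YAP, and 0.42 between YAP_Lsd1ko and WT, each with an SE of 0.16. With the highest library, that labelled YAP_Lsd1ko replicate 2, left out, the last 2 were 0.18 and 0.30.

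Fmo4, the minor form, had the fewest reads, 822 over the 9 libraries. It stood at 8.94, 17.5 and 14.0 CPM in WT, at 7.12, 9.30 and 10.3 CPM in YAP, and at 14.9, 10.3 and 14.5 CPM in YAP_Lsd1ko. The groups overlapped in all 3 comparisons: WT replicate 1 lay within the YAP range, the library labelled YAP_Lsd1ko replicate 2 lay just under YAP replicate 3, and all YAP_Lsd1ko libraries lay within the WT range. The means were 13.5 ± 4.32, 8.92 ± 1.64 and 13.2 ± 2.60 CPM (SD, n = 3). The log2 difference was -0.60 between YAP and WT, 0.58 between YAP_Lsd1ko and YAP, and -0.02 between YAP_Lsd1ko and WT, each with an SE of 0.27. The sign of the last turned in 8 of 19 alternative settings. Without the library labelled YAP_Lsd1ko replicate 2 the last 2 differences were 0.71 and 0.12.

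Between YAP and WT, groups of libraries thus did not overlap for 2 of the 4 genes, Fmo2 above and Fmo5 below. Over all 10897 genes tested, every YAP library was above every WT library in 21.5% and below in 22.8%. Between YAP_Lsd1ko and YAP, the groups did not overlap for Fmo2 only, which was below, as were 11.5% of all genes, while 12.5% were above. Between YAP_Lsd1ko and WT it was again Fmo2 only, above, as were 7.68% of all genes, while 9.91% were below. With the library labelled YAP_Lsd1ko replicate 2 left out, Fmo4 also stood above YAP and Fmo5 also stood below WT in both remaining libraries, which 17.1% and 18.5% of all genes did. The 4 genes were chosen on these values, so nothing is read from their share against the backgrounds. The first 2 comparisons share the YAP libraries, and a high or low YAP library moves both in opposite directions. These are bulk samples, in which fewer cells of a type and less RNA per cell cannot be told apart.

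Each gene's junctions were also read one at a time. Between YAP and WT, the mean CPM was higher in YAP at 8 of 8 Fmo2 junctions and lower at 9 of 9 Fmo5 junctions and 8 of 8 Fmo4 junctions, while for Fmo1 it was higher at 7 and lower at 1. Between YAP_Lsd1ko and YAP, it was lower at 8 of 8 Fmo2 junctions, and higher at 9 of 9 Fmo5, 8 of 8 Fmo1 and 6 of 8 Fmo4 junctions (7 of 8 in Fmo4 without the library labelled YAP_Lsd1ko replicate 2, and otherwise the same counts). Junctions of 1 gene come from the same RNA and are not replicates.

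Levels of different genes were set side by side per counted junction, of which Fmo1, Fmo2 and Fmo4 have 8 and Fmo5 has 9. In WT the order of the means was Fmo5 at 60.7 ± 16.1 CPM per junction, Fmo1 at 33.3 ± 2.62, Fmo2 at 1.87 ± 0.301 and Fmo4 at 1.69 ± 0.540 (SD, n = 3). In WT replicate 2 the last pair was in the opposite order. In YAP Fmo1 led at 35.9 ± 2.03, followed by Fmo5 at 26.2 ± 6.95, Fmo2 at 9.56 ± 3.71 and Fmo4 at 1.12 ± 0.205. In YAP_Lsd1ko Fmo1 stood at 44.6 ± 8.50 and Fmo5 at 37.3 ± 13.4, with Fmo2 at 3.26 ± 0.589 and Fmo4 at 1.66 ± 0.325 far below. Within each YAP_Lsd1ko library Fmo1 was above Fmo5. Their shares of the 4-gene total per junction were 55.4 against 37.6%, 48.1 against 47.2% and 52.5 against 41.7% in replicates 1, 2 and 3. Without the library labelled YAP_Lsd1ko replicate 2 the order of the 4 means was the same. They were 41.0 CPM per junction for Fmo1, 30.5 for Fmo5, 3.002 for Fmo2 and 1.84 for Fmo4 (n = 2). The Fmo2 total over its 8 junctions was 24.0 CPM (n = 2).

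Within a library, the ratio of 2 genes does not depend on the scaling. Per Fmo1 read there were 1.68, 2.45 and 1.97 Fmo5 reads in the WT libraries, 0.620, 0.988 and 0.844 in those of YAP, and 0.763, 1.10 and 0.894 in those of YAP_Lsd1ko. Every library with the transgene was below every WT library, and the YAP and YAP_Lsd1ko libraries overlapped. Per 100 Fmo1 reads the WT libraries had 7.12, 4.41 and 5.50 Fmo2 reads, the YAP libraries 39.9, 16.5 and 24.6, and the YAP_Lsd1ko libraries 7.46, 7.31 and 7.21. On this scale YAP_Lsd1ko lay just above the highest WT library and below every YAP library. The summed level of the 4 genes was 842 ± 167 CPM in WT, 609 ± 50.6 in YAP and 731 ± 190 in YAP_Lsd1ko (SD, n = 3), with every YAP library, 638 CPM at most, below every WT library, 680 CPM at least. With the library labelled YAP_Lsd1ko replicate 2 left out the mean of YAP_Lsd1ko was 642 CPM (n = 2).

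**Figure D2:**
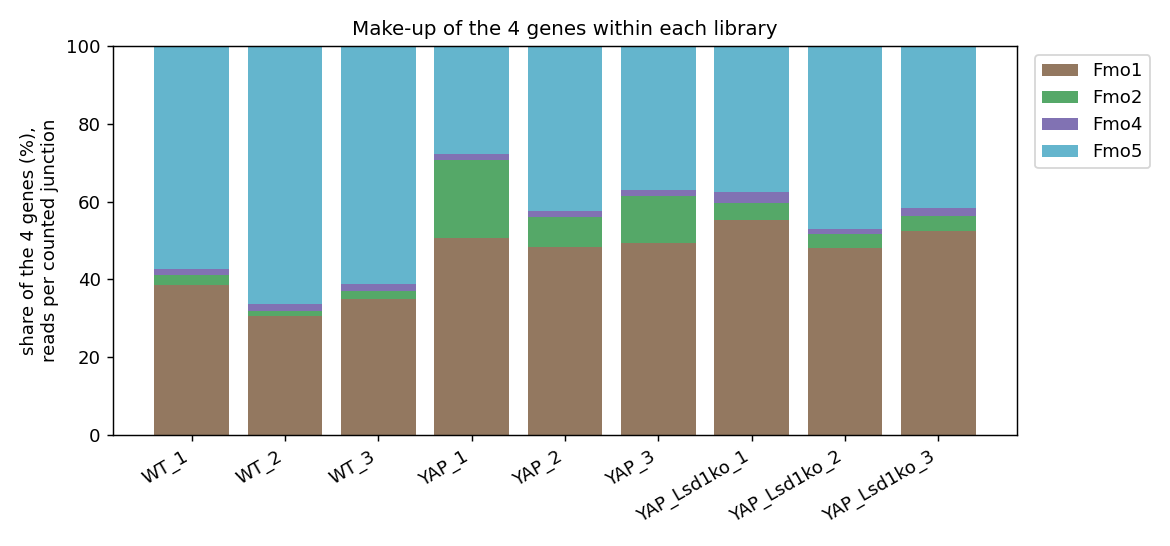
Share of each gene in the 4-gene total of a library, in percent of reads per counted junction (y axis), for the 9 libraries (x axis); each bar is 1 library. Fmo5 makes up 57.4 to 66.3% in WT and 27.9 to 42.3% in YAP, and Fmo2 makes up 7.95 to 20.2% in YAP and 1.34 to 4.13% elsewhere.

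The share of a gene's reads at each junction had not been used to choose the genes, and its change was tested. Of the 33 junctions, 31 had enough reads, and none of the 31 passed in any of the 3 comparisons (edgeR diffSpliceDGE, adjusted p of 0.999996 or more). At an unadjusted p under 0.05 the counts were 0 between YAP and WT, 1 between YAP_Lsd1ko and YAP, and 0 between YAP_Lsd1ko and WT. Over all 73170 junctions tested, 0.0424%, 0.0041% and 0.00547% passed in these comparisons. The junction with the smallest p was the sixth of Fmo4, at chromosome 1, 162799152 to 162803572, with a log2 change of share of -0.87 between YAP_Lsd1ko and YAP (unadjusted p = 0.0213). It had 13, 15 and 6 reads in the YAP libraries and 11, 2 and 8 in YAP_Lsd1ko.

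For the other genes the smallest unadjusted p over the 3 comparisons was 0.225 in Fmo2, 0.320 in Fmo1 and 0.323 in Fmo5. In Fmo2 it belonged to the second junction, the long intron after the first coding exon, at 162888885 to 162898173, which took 27.1 ± 2.61% of the gene's reads in WT and 20.1 ± 4.14% in YAP (SD, n = 3). In Fmo1 it belonged to the last junction, at 162830315 to 162832962, which took 13.7 ± 0.776% in WT and 11.2 ± 0.990% in YAP_Lsd1ko. The higher Fmo2 total in YAP was thus spread along the gene, with 8.28 to 20.1% of its reads at each junction from the second to the eighth.

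**Figure D3:**
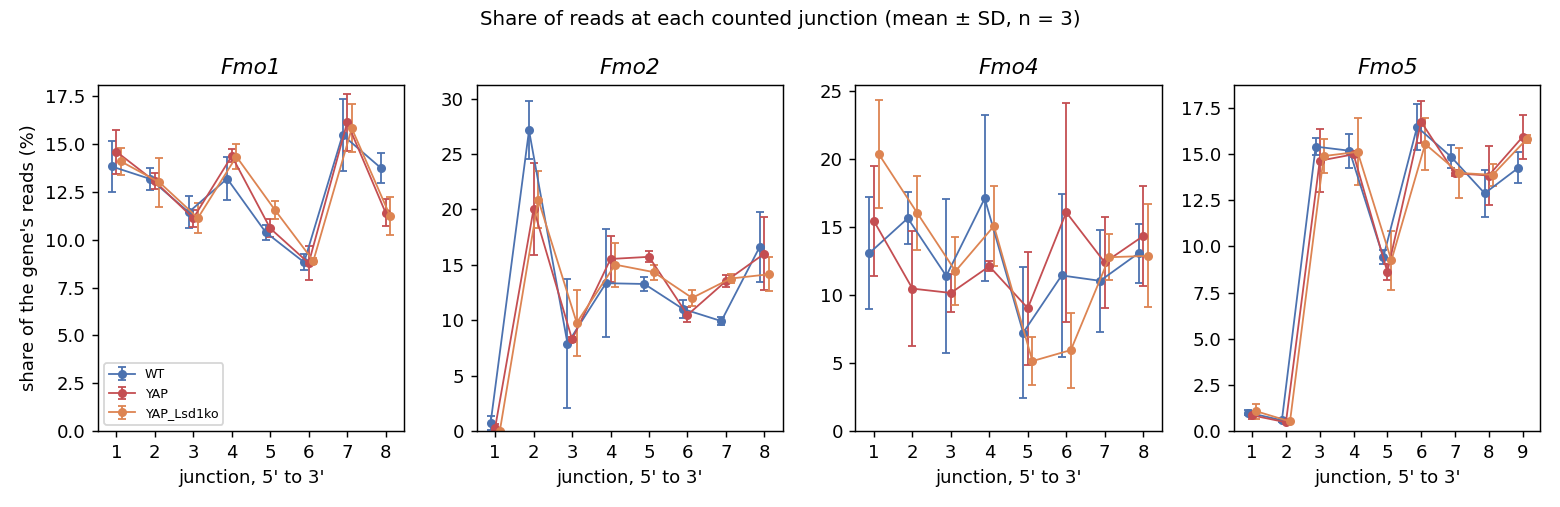
Share of a gene's reads (y axis, percent) at each counted junction in order from the 5′ to the 3′ end (x axis), as mean ± SD of 3 libraries per group. The widest gap between groups in Fmo1 is at the last junction, at 13.7% in WT and 11.2% in YAP_Lsd1ko, and the wide bars of Fmo4 go with its 54 to 136 reads per junction.

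In absolute number, reads at the first introns were many in Fmo1 only. There the 6676-base first intron at 162859563 to 162866238 had 2956 reads, against 6 and 0 at the introns of the nearer alternative first exons, and these 6 reads were 3 in WT, 1 in YAP and 2 in YAP_Lsd1ko. In Fmo5, 2 alternative donors 18 bases apart joined the same acceptor: the one at 97628902 had 109, 49 and 84 reads in WT, YAP and YAP_Lsd1ko, and the one at 97628920 had 64, 28 and 41. Both were lower in YAP than in WT, and each took 0.485 to 1.08% of the gene's reads in a group, far under the 15.4% of the next junction in WT. Fmo2 had 7 reads at its first counted intron, 162898312 to 162898671, and 40 at an intron of 82 bases, 162898312 to 162898393, that GENCODE M21 lists but the deposited tables mark as unannotated. The 40 reads were 8 in WT, 25 in YAP and 7 in YAP_Lsd1ko. The next Fmo2 junction had 588 reads. The first introns of Fmo4, 162812654 to 162813700 and 162812654 to 162813575, are also marked as unannotated and lay outside the counts. They had 70 and 16 reads, against 54 to 136 at the counted Fmo4 junctions. In all, 11 of 44 GENCODE M21 introns of the 4 genes lay outside the counts and held 244 reads.

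The RefSeq promoter table (GRCm38.p6, 300 bases around each start) had 2 windows for Fmo2 and 1 each for Fmo4 and Fmo5. The letters CATTCC, which TEAD factors, the DNA-binding partners of YAP, recognise, were searched on both strands. They were in 14.7% of all 32851 windows and in 0 of these 4, which says only that these letters are not in these windows.

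Of the other family members read here, Fmo6 had 0 reads in WT, 12 in YAP and 3 in YAP_Lsd1ko, too few to test, and a count of 0 allows up to 3 reads. Fmo9 had 0 reads in all libraries.

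Likeness of pattern was measured as Pearson's r of log2 CPM over the 9 libraries, among 8328 genes with a mean of at least 5 CPM and outside the family. It is a description, since the 9 points share groups and scaling. Fmo2 was most like Scaper (r = 0.98), Xrn1 (0.97) and Sult1a1 (0.97), a sulfotransferase of phenols. Fmo5 was most like Tax1bp1 (0.98), Uba3 (0.98) and Cyp2c38 (0.98), a cytochrome P450 of the Cyp2c family. Fmo1 was most like Nap1l4 (0.97), Pip4p1 (0.94) and Ric1 (0.93), and Fmo4 was most like Itih5 (0.96), Mlec (0.95) and Lyst (0.95). Among the members r was -0.79 for Fmo2 with Fmo5, -0.74 for Fmo2 with Fmo4, 0.55 for Fmo4 with Fmo5, and 0.08 to 0.17 for Fmo1 with each of the others.

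Genes around the enzymes were taken from 5 lists, Fmo6 and Fmo9 among them, with 60 genes of which 52 could be tested. These lists were chosen with earlier results of these data known, so nothing is read from their share against that of all genes. Between YAP and WT, 2 of the 52 rose (3.85%) and 18 fell (34.6%) with edgeR's quasi-likelihood test at an adjusted p under 0.05, against 7.44% and 10% of all genes, and their median log2 difference was -0.64, against 0.00 over all genes. Between YAP_Lsd1ko and YAP, 3 rose and 0 fell with edgeR (2 lower at an unadjusted p under 0.05, and 1 fell with DESeq2), against 1.75% and 0.367% of all genes, with a median of 0.44 against -0.01. Between YAP_Lsd1ko and WT, 1 rose and 1 fell, against 1.12% and 0.927% of all genes, with a median of -0.32 against 0.00. Without the library labelled YAP_Lsd1ko replicate 2, 0 rose and 0 fell between YAP_Lsd1ko and YAP with edgeR (9 in either direction at an unadjusted p under 0.05), with a median of 0.23, and 2 rose and 7 fell between YAP_Lsd1ko and WT, with a median of -0.44. Of all 11127 genes tested in that fit, 1.23% rose and 0.225% fell between YAP_Lsd1ko and YAP. Between YAP_Lsd1ko and WT, 3.47% of them rose and 2.05% fell. The counts depended on replicate 3: with every replicate 3 left out, 0 genes passed in either direction in all 3 comparisons with edgeR, and at an unadjusted p under 0.05 there were 2 higher and 14 lower between YAP and WT, 4 and 0 between YAP_Lsd1ko and YAP, and 1 and 2 between YAP_Lsd1ko and WT. The differences themselves moved little and their errors grew, as in Aox3 between YAP and WT, from a log2 difference of -4.55 (SE 0.60) to -4.60 (SE 0.97). With every replicate 1 or every replicate 2 left out, which leaves as many libraries, 15 and 22 fell between YAP and WT. Of single libraries, leaving out YAP replicate 3 brought the 18 that fell to 8, leaving out WT replicate 3 to 9, and leaving out WT replicate 1 to 11. The 2 that rose became 1 without WT replicate 1, WT replicate 3, YAP replicate 2 or YAP replicate 3. Between YAP_Lsd1ko and YAP, the 3 that rose became 8 without YAP_Lsd1ko replicate 1, 1 without YAP replicate 2, and 0 without any other single library except WT replicate 1.

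Among 10 tested genes that supply FAD and NADPH, 3 fell between YAP and WT and none rose. Me1, the cytosolic malic enzyme that makes NADPH, fell from 176 ± 13.9 to 31.6 ± 7.98 CPM (SD, n = 3), a log2 difference of -2.48 (SE 0.37). Idh1, the cytosolic isocitrate dehydrogenase that also makes NADPH, fell from 818 ± 80.0 to 373 ± 18.4 CPM. Flad1, which makes FAD from FMN, fell from 31.8 ± 8.70 to 19.9 ± 0.786 CPM. Of 19 alternatives, these calls between YAP and WT held in 18 for Me1, 15 for Idh1 and 9 for Flad1. Slc25a32, a mitochondrial carrier of folate and FAD, was at 18.0 ± 1.93 and 9.78 ± 1.56 CPM and did not pass (edgeR adjusted p = 0.0556). Me1 was the only gene of this list to rise between YAP_Lsd1ko and YAP, with a log2 difference of 1.80 (SE 0.36, edgeR adjusted p = 0.0462). The call held in 4 of 19 alternatives, and without the library labelled YAP_Lsd1ko replicate 2 the difference was 1.30 (edgeR adjusted p = 0.0530).

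Among 17 tested oxidases and reductases of drug metabolism, 7 fell between YAP and WT (Cyp2c29, Por, Cyb5a, Cyp2e1, Cyp1a2, Aox1 and Aox3) and 1 rose (Maoa). These calls held in 9 of 19 alternatives for Cyp2c29, 12 for Por and Cyb5a, 13 for Maoa and 16 for Aox1. For Cyp2e1, Cyp1a2 and Aox3 they held in 18. Cyp1a2, a cytochrome P450 that acts on caffeine, fell 12.6-fold, from 549 ± 24.0 to 43.5 ± 27.6 CPM (SD, n = 3). Aox3, an aldehyde oxidase, fell 23.4-fold and Cyp2e1, which oxidises ethanol, fell 21.0-fold. Maoa, the amine oxidase of the outer mitochondrial membrane, rose 2.14-fold, from 18.1 ± 1.74 to 38.8 ± 10.2 CPM. Between YAP_Lsd1ko and YAP, Cyp2e1 rose 10.3-fold and Aox3 rose 6.34-fold (edgeR adjusted p = 0.0474 and 0.0491). With the library labelled YAP_Lsd1ko replicate 2 left out, the values were 6.09-fold and 4.84-fold (edgeR adjusted p = 0.0892 and 0.107). The calls held in 6 and 7 of 19 alternatives, and both were also lost without WT replicate 2 or 3, YAP replicate 1, 2 or 3, or YAP_Lsd1ko replicate 3.

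Among 14 tested genes of taurine and methylamine metabolism, 4 fell between YAP and WT (Pemt, Gnmt, Csad and Cdo1) and 1 rose (Vnn1). These calls held in 12 of 19 alternatives for Pemt, 17 for Cdo1 and 18 for Gnmt, Csad and Vnn1. Cdo1, which oxidises cysteine, fell from 572 ± 221 to 195 ± 4.17 CPM (SD, n = 3), and Csad, which makes hypotaurine, the substrate of Fmo1, fell from 161 ± 3.79 to 61.1 ± 2.49 CPM. Csad was lower still in YAP_Lsd1ko, at 36.4 ± 15.1 CPM, and fell between YAP_Lsd1ko and WT (log2 -2.14, SE 0.26). With all 9 libraries in edgeR no other listed gene fell there. Without the library labelled YAP_Lsd1ko replicate 2 the Csad difference was -1.88, and 6 more fell (Chdh, Cyp1a2, Gnmt, Me1, Nr1i3 and Por), while with DESeq2 8 listed genes fell in all. Vnn1, which releases cysteamine, another source of hypotaurine, rose 5.07-fold between YAP and WT, from 19.0 ± 2.47 to 96.3 ± 9.30 CPM, and 3.36-fold between YAP_Lsd1ko and WT, or 4.12-fold without the library labelled YAP_Lsd1ko replicate 2, where Maoa rose too. The last call of Vnn1 held in 9 of 19 alternatives. Gnmt, which methylates glycine, fell 4.92-fold between YAP and WT.

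Among 11 tested transcription factors of xenobiotic and hepatocyte genes, 4 fell between YAP and WT and none rose. Nr1i3, the constitutive androstane receptor, fell 13.9-fold, from 97.2 ± 50.8 to 6.94 ± 3.52 CPM (SD, n = 3). Nr1i2, the pregnane X receptor, fell 1.68-fold, Ppara, the receptor for fatty acids, 1.61-fold and Nr1h4, the bile acid receptor, 1.50-fold. The calls held in 10 of 19 alternatives for Ppara, 13 for Nr1h4 and 18 for Nr1i3 and Nr1i2. None of the 11 passed in the other comparisons, with 3 and 4 at an unadjusted p under 0.05 in edgeR for YAP_Lsd1ko against YAP and against WT. With the library labelled YAP_Lsd1ko replicate 2 left out, Nr1i3 fell between YAP_Lsd1ko and WT.

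**Figure D4:**
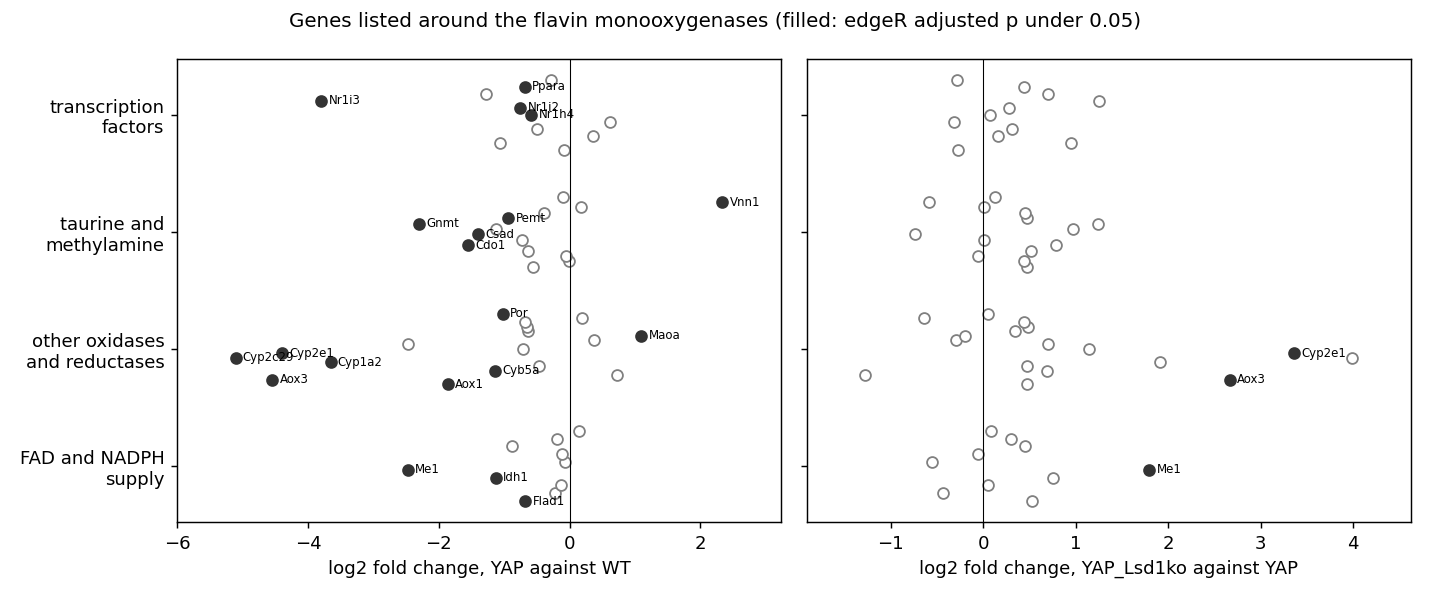
Log2 fold change (x axis) of each tested gene in 4 lists (y axis) for YAP against WT and for YAP_Lsd1ko against YAP, with filled points for an edgeR adjusted p under 0.05 and the gene's name beside them. In the left panel 18 points are filled on the negative side, and Vnn1 and Maoa on the positive side; in the right panel 3 are filled, all positive.

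Summed markers of some other cell types differed between the groups, while others overlapped. Beside the counts below, 7.44% of all tested genes rose and 10% fell between YAP and WT. Summed cholangiocyte markers stood at 53.8 to 108 CPM in WT, 970 to 1154 in YAP and 158 to 621 in YAP_Lsd1ko, with 1 of 5 tested genes higher in YAP than in WT, and summed Kupffer cell and macrophage markers at 490 to 1023, 2184 to 2544 and 484 to 2259 CPM, with 4 of 8. Neutrophil markers were at 0.488 to 2.03, 5.70 to 9.97 and 1.16 to 5.81 CPM, with Ly6g at 0 reads and 2 of 2 tested genes higher in YAP than in WT, and lymphocyte markers at 42.6 to 149, 209 to 307 and 47.3 to 236 CPM, with 1 of 3. Endothelial markers were at 961 to 986, 903 to 1078 and 901 to 932 CPM (2 of 8 rose between YAP and WT), and stellate cell and fibroblast markers at 890 to 1622, 525 to 1051 and 681 to 1033 CPM (1 of 9 rose and 1 fell). Erythroid markers were at 26.5 to 247, 16.9 to 18.4 and 50.4 to 178 CPM, with no unique reads for Hba-a1 and Hbb-bs, which have near-identical copies, and the 1 tested gene lower in YAP than in WT. Markers of pericentral hepatocytes, Cyp2e1 and Cyp1a2 among them, were at 7840 to 16109, 958 to 1534 and 2783 to 9534 CPM, and 8 of 9 fell between YAP and WT. Periportal markers were at 4616 to 8248, 3406 to 3953 and 3761 to 7527 CPM, and 3 of 8 fell. Between YAP_Lsd1ko and YAP, 4 of 9 pericentral and 1 of 9 stellate cell and fibroblast markers rose, against 1.75% of all genes, and none fell. Between YAP_Lsd1ko and WT, 1 of 5 cholangiocyte markers rose and 2 of 9 pericentral markers fell, against 1.12% and 0.927% of all genes. The library labelled YAP_Lsd1ko replicate 2 lay at an end of every YAP_Lsd1ko range here, and these sums and calls are not given without it. The part of these cell types in the differences of Fmo2 and Fmo5 was not tested.

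The marker sums of single libraries stood beside the levels as follows. In WT the pericentral sums were 16109, 7840 and 11278 CPM in replicates 1, 2 and 3, with Fmo5 at 410, 698 and 532 CPM, the reverse order. In YAP they were 958, 1534 and 1289 CPM, with Fmo5 at 167, 288 and 254 CPM, and in YAP_Lsd1ko 2783, 9534 and 6011 CPM, with Fmo5 at 215, 456 and 335 CPM, the same order in both. The cholangiocyte sums were 53.8, 108 and 80.8 CPM in WT, with Fmo2 at 17.4, 12.6 and 14.9 CPM, the reverse order. They were 1154, 970 and 1091 CPM in YAP, with Fmo2 at 107, 48.1 and 73.9 CPM, the same order, and 621, 158 and 469 CPM in YAP_Lsd1ko, with Fmo2 at 21.0, 30.3 and 27.0 CPM, the reverse order. Replicate 3 held the middle value in every set of 3 given here, so each order turns only on which of replicates 1 and 2 was higher. An order of 3 libraries is a description and was not tested.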

How the data were processed

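RNA of 9 liver samples was sequenced after depletion of ribosomal RNA with a stranded kit, per the labels' protocols. The submitters' processing notes name mm10 as the build and, with no versions, bcl2fastq, FastQC, STAR, featureCounts and edgeR. The deposited tables hold raw counts, per splice junction, of unique and of multi-mapped reads, in STAR's junction layout. Junctions marked annotated were matched by position to GENCODE M21 introns and summed for each gene. A read that crosses several junctions counts at each, so counts are not molecules, and genes without introns were not measured. Multi-mapped reads came to 47.4 to 218 per 100 unique reads in WT, 15.1 to 16.8 in YAP and 32.5 to 147 in YAP_Lsd1ko, so they differed with group. They were used only in an alternative. All 9 libraries were fitted together with edgeR 4.0.16 (TMM, filterByExpr, robust quasi-likelihood test, Benjamini-Hochberg adjustment over all genes, threshold 0.05), and junction shares with diffSpliceDGE, after both were tested on simulated data. There the gene test found 38 of 100 genes changed 2-fold and 77 of 100 changed 4-fold, with 6 false calls. The junction test found 92 of 100 junctions shifted 4-fold at a fixed spread, with 4 false calls outside the changed genes. Smaller junction shifts were not simulated. A gene or junction that did not pass may thus still have changed. An SE is the absolute log2 difference divided by the square root of F. DESeq2 and the other settings were alternatives. The members and lists were chosen with earlier results of these data known. Of each list, the 4 genes with the smallest p between YAP and WT were named with values, and the other genes that passed were named from the counts. Likeness used log2 CPM with a prior count of 2 and left out the family and unnamed gene models. Same-numbered libraries were treated as unpaired. One listed gene and one sequence are not reported here.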

Additional observations from a re-analysis of the deposited data

Results flagged for a closer look

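Of 51 junctions within the 4 genes that the gene counts do not use, 2 had more reads in all 3 libraries of a group, for their depth, than in any WT library. The first, in Fmo4 at chromosome 1, 162811439 to 162812528, had 10 reads over YAP_Lsd1ko (2, 1 and 7) and 1 in each WT library. The second, in Fmo5 at chromosome 3, 97633220 to 97635510, had 9 reads over YAP_Lsd1ko (3 in each library) and 1, 1 and 2 in WT. Neither is an intron of GENCODE M21. The first shares its donor with the first counted Fmo4 junction, and the second its acceptor with the third Fmo5 junction. These counts are small, and neither was tested.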

How the results depend on the processing

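The 12 log2 differences of the 4 genes kept their sign under 19 alternatives each, except Fmo4 between YAP_Lsd1ko and WT. Scaling by library size alone moved the median of all genes between YAP and WT to 0.31 and Fmo1 to 0.41. No junction passed the usage test under 15 alternatives, the replicate block included. The counts of listed genes depended on the fit. With every replicate 3 left out, chosen after seeing the data, all 6 counts were 0. With every replicate 1 left out, also chosen after seeing the data, 12 rose and 2 fell between YAP_Lsd1ko and YAP, and 0 rose and 2 fell between YAP_Lsd1ko and WT; with every replicate 2 left out, 2 rose and 8 fell between YAP_Lsd1ko and WT. Between YAP and WT, leaving out 1 library at a time gave 8 to 27 that fell and 1 to 2 that rose, and the 2 that rose were 1 with the replicate block. Between YAP_Lsd1ko and YAP, the 3 that rose were 8 with DESeq2 and 0 with library size alone, with no filter on low counts, with only the 6 libraries compared and with the replicate block, and 0 to 8 with 1 library left out. The 0 that fell were 1 with DESeq2 and 0 to 1 with 1 library left out. Between YAP_Lsd1ko and WT, the 1 that fell was 8 with DESeq2, 3 with only the 6 libraries and 1 to 7 with 1 library left out, 7 being without the library labelled YAP_Lsd1ko replicate 2. The 1 that rose was 2 with DESeq2, 0 with only the 6 libraries, 0 with the replicate block and 0 to 2 with 1 library left out. The replicate numbers share only a number: deviations of same-numbered libraries correlated at -0.66 to 0.34, over 0.1 in 4 of 9 pairs. The depth limits Fmo4 and the first Fmo2 junction most.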
